A study of Arabidopsis thaliana with 5 samples.

Results

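Roots of Arabidopsis thaliana kept at low magnesium for 7 d were set beside roots kept at low magnesium for 4 d, 1 RNA-seq library a side. Every nuclear locus of the deposited matrix (identifiers AT1G to AT5G) with 5 FPKM or more in either library was compared, which left 16182 of 33280 loci. FPKM divides the fragments counted on a transcript by its length in kilobases and by the size of the library. The measure used throughout is the log2 ratio, log2((7 d + 1)/(4 d + 1)) of FPKM, so that a positive ratio means a higher level at 7 d, and a ratio of 1 or more, or of -1 or less, is called 2-fold. A ratio understates the change of genes with few FPKM because of the added 1.

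The series holds 5 libraries of total RNA from roots of the line the labels call Col-1, from plants grown for 5 weeks and under low Mg (0.5 µM Mg2+) for 7 d or 4 d, high Mg (10 mM Mg2+) for 7 d or 4 d, or, as a control, sampled at 4 d. The Mg2+ level of the control, the composition of the rest of the medium and the hour of harvest are missing from the labels. A control of 7 d was not used here. All plants had a 10-h day at 24 °C and a 14-h night at 20 °C. Whether the 5 weeks include the treatment is not stated. Treatment time, plant age, hour of harvest and any difference in handling or processing between the days cannot be told apart. With 1 library a group there is no replicate and no test, and each difference below is one between 2 libraries.

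Magnesium is the central ion of chlorophyll and a partner of ATP in most enzymes that use it, and roots take it up through membrane proteins of the MGT (MRS2) family. The series concerns how Mg2+ supply affects root hairs, the outgrowths of root epidermal cells that take up water and ions. Roots also run a circadian clock, in which morning-phased proteins such as CCA1 and LHY repress evening-phased genes that carry a promoter motif called the evening element. A further set of genes follows copper: when copper is short, the transcription factor SPL7 acts through promoter copies of GTAC on copper uptake genes and on microRNAs that lower the transcripts of several copper proteins.

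The library of low Mg roots at 7 d was the shallowest, at an estimated 6.65 M fragments (M, mega), against 12.8 M for low Mg at 4 d and 10.9 M to 11.9 M for the other 3. At these sizes, 5 FPKM on a transcript of 1 kb stood for about 33.3 fragments at 7 d and 64.2 fragments at 4 d. Between the libraries, 652 genes were 2-fold higher at 7 d (4.03% of those compared) and 2085 were 2-fold lower (12.9%), and the median ratio of all 16182 genes was -0.16. Of the 2-fold genes, 190 reached 4-fold higher and 548 reached 4-fold lower, and 180 were listed at 0 in one library. Higher genes were 23.8% of the 2-fold genes on the deposited scale, but this split depends on the scaling. One locus of 102 nt, AT2G01021, took up 18.5% of all nuclear FPKM at 7 d and 75.7% at 4 d. Setting all nuclear loci to the same sum (TPM) therefore turned the split to 98.5% higher and the median of all genes to 1.76. The same scaling without that locus gave 58.3% and a median of 0.26. The median of a gene list is therefore to be read against the -0.16 of all genes, and its TPM value is printed where the sign turns. In such whole roots, fewer cells of a type and less RNA per cell cannot be told apart.

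The ratio also followed the length of the transcript. Its median was -0.89 for the 609 coding genes with 500 to 749 nt of exon, -0.37 for the 3677 genes with 1000 to 1499 nt and 0.18 for the 1906 genes with 3000 nt or more. The median exon length was 1796 nt among 2-fold higher coding genes, 1102 nt among 2-fold lower ones and 1751 nt among all coding genes compared. High Mg roots had -0.71, -0.31 and 0.13 in the same 3 length classes. The 215 genes under 500 nt stood further apart between the Mg levels, with a median of -1.62 in low Mg, where 65.1% of them were 2-fold lower, and -0.74 in high Mg. After each ratio was centred on the median of the coding genes nearest in length, higher genes made up 44.6% of the 2-fold genes. The part of length, fragmentation or library preparation in any one ratio was not tested, and a ratio centred on length is given for short genes on which a result turns.

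**Figure D1:**
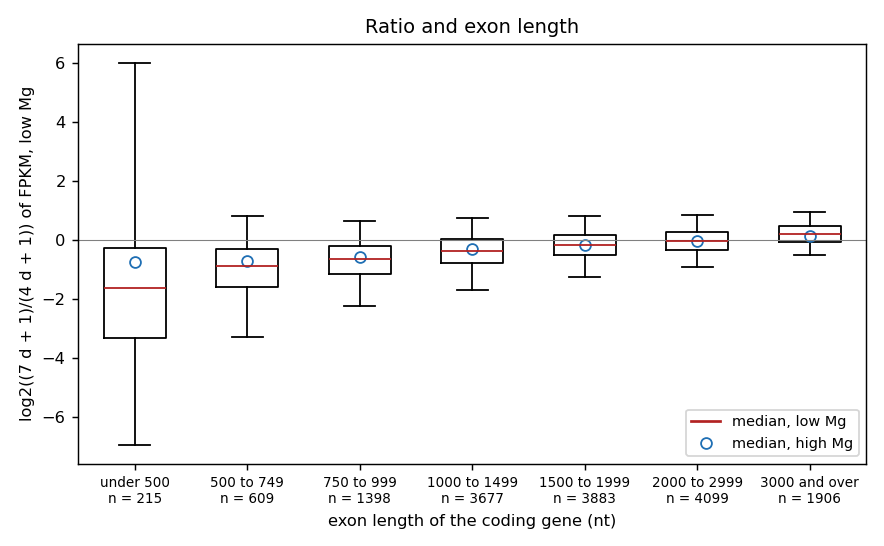
Log2 ratio of low Mg roots at 7 d over 4 d (y axis) for coding genes in 7 classes of exon length in nt (x axis). Boxes span the quartiles of genes, whiskers the 5th to 95th percentile, red lines are medians in low Mg and open circles medians in high Mg, which climb together with length, to 0.18 in low Mg and 0.13 in high Mg at 3000 nt or more.

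The 7-d and 4-d roots of high Mg gave a second comparison of the same days that shares no library with the first. There, 747 of 16081 genes were 2-fold higher at 7 d (4.65%) and 1819 were 2-fold lower (11.3%). Of the genes 2-fold higher in low Mg, 315 were so in high Mg as well, which is 48.3% of the low Mg list and 42.2% of the high Mg list. Of those 2-fold lower, 1004 were so in both, 48.2% of the low Mg list and 55.2% of the high Mg list. The 2 ratios had a Pearson's r of 0.645 across the 15585 genes compared at both levels, as a description, since genes are no independent replicates. A further 35 genes were 2-fold higher in low Mg and 2-fold lower in high Mg, and 67 genes the other way round. Whether a ratio differed between the Mg levels beyond replicate error could not be tested. Below, the high Mg count and median of a gene list or family cover the members compared in low Mg. No minimum was set on the high Mg FPKM of these members. The high Mg shares over all genes are those of the 16081 genes, which have 5 FPKM or more in either high Mg library.

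**Figure D2:**
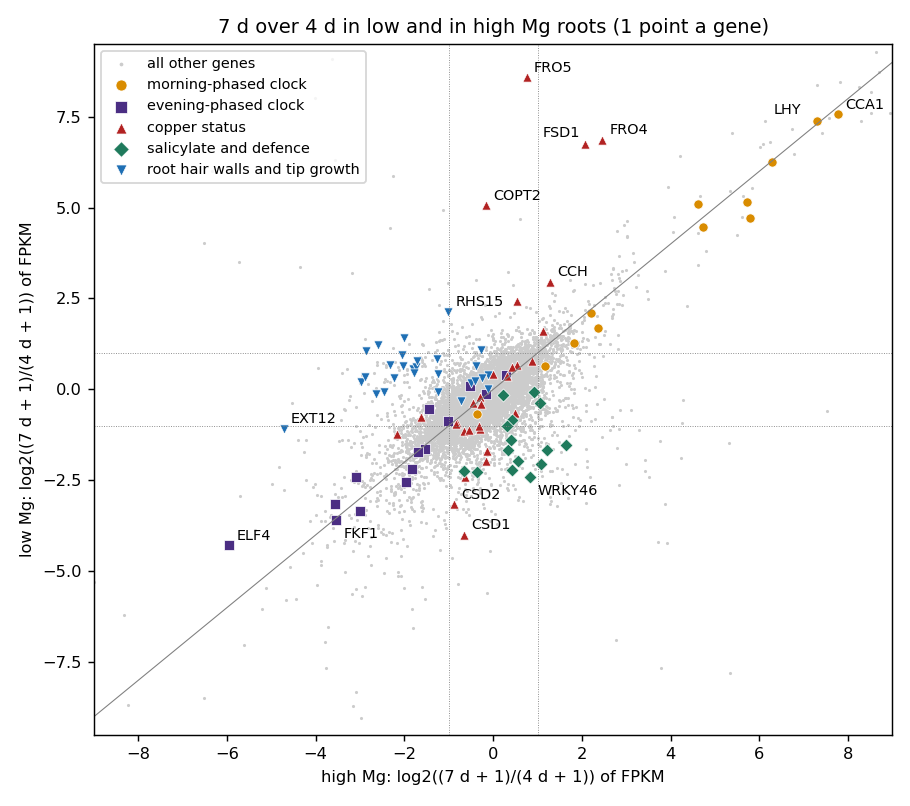
Log2 ratio of 7 d over 4 d in low Mg roots (y axis) against that in high Mg roots (x axis), 1 point a gene, with the line of equal ratios, dotted lines at 2-fold and 5 gene lists in colour. Clock genes lie along the line, copper genes such as FRO5, COPT2 and CSD1 lie off it near the zero of the x axis, and genes of salicylate and of root hair walls lie mostly on opposite sides of it.

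Coding genes with a symbol and 500 nt or more of exon were ranked by the low Mg ratio minus the high Mg ratio. The highest 4 were all genes of copper status. That ranking left out genes without a symbol, so the 4 do not lead all coding genes. The difference was 8.13 for AT5G33355, 6.55 for AT4G11393 and 6.08 for AT3G59930, defensin-like genes given below. Positions are those of TAIR10.1 throughout. FRO5 (AT5G23990, chr5:8105461-8108642, minus strand), a ferric and cupric reductase of the plasma membrane, stood at 382 FPKM in low Mg at 7 d and was listed at 0 in low Mg at 4 d. High Mg roots had 0.693 FPKM at 7 d and 0 at 4 d, and the control had 0.366 FPKM. Its neighbour FRO4 (AT5G23980, chr5:8097978-8101330, minus strand), a copper reductase of the same family, had 153 FPKM at 7 d and 0.325 FPKM at 4 d in low Mg, a ratio of 6.86. In high Mg it had 5.83 and 0.244 FPKM, and in the control 2.97 FPKM. Only the low Mg library of 7 d held either gene above 10 FPKM. The genes lie 4130 bases apart and are close paralogs, so fragments may have been shared between them. The estimated fragments were 2383 for FRO4 at 7 d (95% exact Poisson interval 2288 to 2481) and 9.77 at 4 d (4.80 to 18.4), which covers counting error only.

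COPT2 (AT3G46900, chr3:17268700-17269510, plus strand), a copper importer of the root surface, had 322 FPKM in low Mg at 7 d and 8.68 FPKM at 4 d, a ratio of 5.06 (5.95 centred on length). In high Mg it had 13.1 FPKM at 7 d and 14.9 FPKM at 4 d, and 9.49 FPKM in the control, so that 4 of the 5 libraries lay within 8.68 to 14.9 FPKM. FSD1 (AT4G25100, chr4:12884300-12887011, minus strand), the iron superoxide dismutase that takes the place of the copper enzymes, had 827 FPKM at 7 d and 6.71 FPKM at 4 d, a ratio of 6.75. FSD1 was also higher at 7 d in high Mg, with 47.7 against 10.5 FPKM, a ratio of 2.08, and it had 27.6 FPKM in the control. CCH, a copper chaperone, had 1215 against 155 FPKM in low Mg and 433 against 178 FPKM in high Mg. The metal-nicotianamine transporters YSL2 and YSL3 had 40.9 against 6.83 FPKM and 66.8 against 21.1 FPKM in low Mg. SPL7, the copper sensor itself, stayed within 2-fold at 28.7 against 17.8 FPKM, and so did the copper pumps HMA5 (27.5 against 15.6 FPKM) and RAN1 (148 against 115 FPKM).

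Some genes of copper proteins were lower at 7 d and others were not. CSD1 (AT1G08830, chr1:2827060-2829315, plus strand), the cytosolic copper/zinc superoxide dismutase, had 80.3 FPKM in low Mg at 7 d and 1299.7 FPKM at 4 d, a ratio of -4.00 (-3.34 centred on length). The other 3 libraries lay nearer to the low Mg library of 4 d, at 734 FPKM in high Mg at 7 d, 1161 FPKM in high Mg at 4 d and 996 FPKM in the control. CSD2 (AT2G28190, chr2:12014412-12016569, plus strand), the plastid enzyme, had 41.1 against 376 FPKM in low Mg, a ratio of -3.16, and 196 against 362 FPKM in high Mg. CCS, the chaperone that loads copper into both, had 27.9 against 93.1 FPKM in low Mg and 84.3 against 93.5 FPKM in high Mg. The plantacyanin gene ARPN had 5.48 against 33.4 FPKM, and the laccase gene LAC2 4.24 against 19.6 FPKM. CSD3, a peroxisomal dismutase, was within 2-fold at 21.3 against 27.8 FPKM. Of 29 measured genes of copper status, compiled after values had been seen, 7 were 2-fold higher and 10 were 2-fold lower in low Mg (4.03% and 12.9% of all genes), while 4 were higher and 2 lower in high Mg (4.65% and 11.3%). Centred on length, 7 were higher and 7 lower in low Mg. On the TPM scale, where the median of all genes was 1.76, the low Mg ratio was -1.81 for CSD1, -0.98 for CSD2, -0.36 for ARPN and -0.01 for LAC2, while that of CCS turned to 0.43. The labels give no copper level of the medium, and the part of copper supply was not tested.

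**Figure D3:**
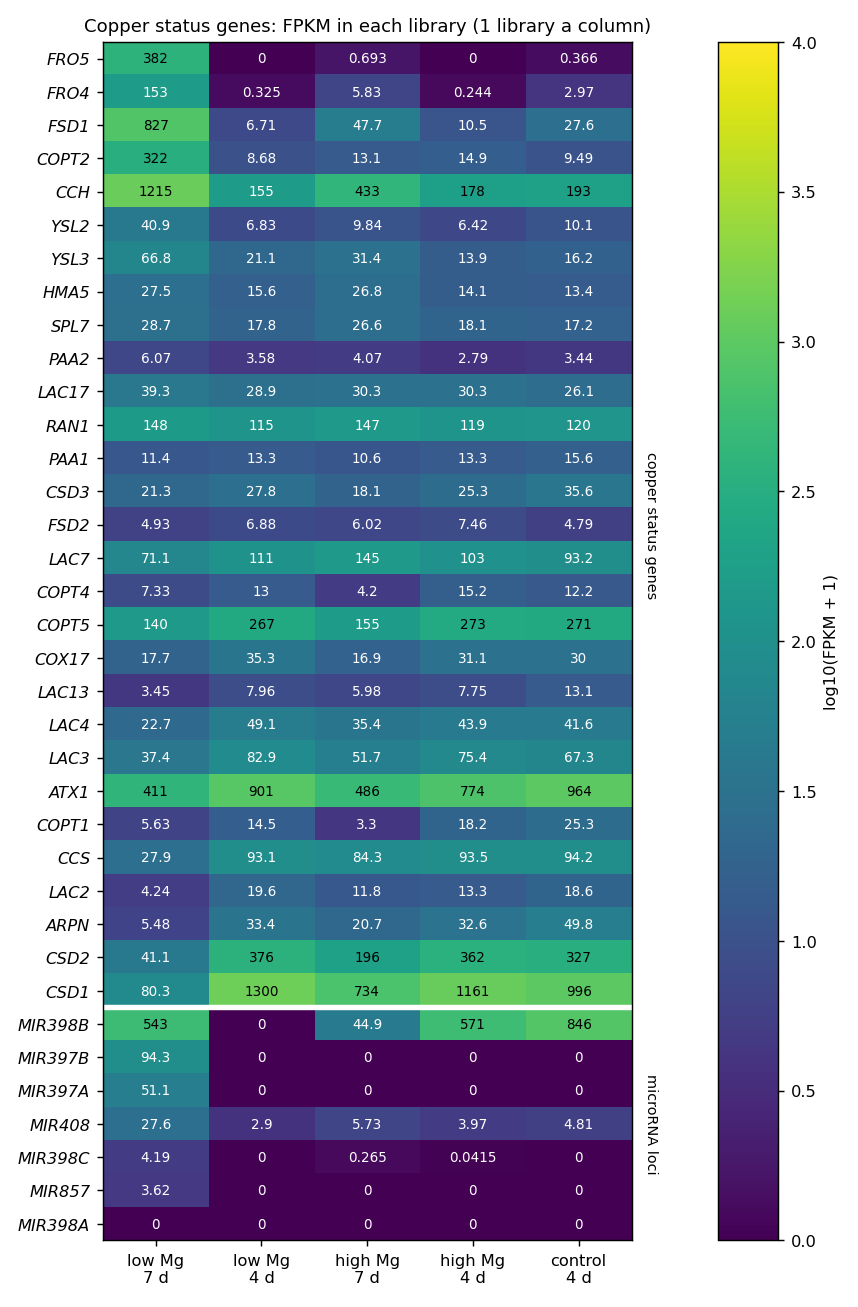
FPKM of 29 copper status genes and 7 microRNA loci (rows, sorted by the low Mg ratio within each block) in the 5 libraries (columns), printed in each cell and coloured by log10(FPKM + 1). The first column, low Mg at 7 d, holds the highest values of FRO5, FRO4, FSD1 and COPT2 and the lowest of CSD1 and CSD2, at 80.3 and 41.1 FPKM.

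The microRNA loci tied to copper were read as their precursors. MIR397A and MIR397B had 51.1 and 94.3 FPKM in low Mg at 7 d and were listed at 0 in each of the other 4 libraries. MIR408 had 27.6 FPKM at 7 d and 2.90 FPKM at 4 d in low Mg, and 5.73 and 3.97 FPKM in high Mg at 7 d and 4 d. MIR857 had 3.62 FPKM in low Mg at 7 d and was at 0 elsewhere. MIR398C had 4.19 FPKM in low Mg at 7 d and 0.265 FPKM or less elsewhere, and MIR398A was at 0 in all 5. MIR398B went against this pattern: it had 543 FPKM in low Mg at 7 d and 0 at 4 d, but 44.9 FPKM in high Mg at 7 d, 571 FPKM in high Mg at 4 d and 846 FPKM in the control. No fragment number was estimated for these precursors, whose 105 to 377 nt of length turn even a handful of fragments into many FPKM. MIR398B also lies wholly inside AT5G14550 on the other strand, which had 26.1 against 19.5 FPKM in low Mg, and whether the libraries kept strand is not given in the sources used here. Mature microRNAs were not measured.

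The mature sequences are shown so that they can be set beside the transcripts they are known to lower. They were read from the TAIR10.1 genome at the positions RefSeq annotates and are written as DNA, with the seed (bases 2 to 8) in capitals. miR397a and miR397b share the seed CATTGAG, and miR398b-3p and miR398c-3p are identical.
miR397a: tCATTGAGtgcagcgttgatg
miR397b: tCATTGAGtgcatcgttgatg
miR398b-3p: tGTGTTCTcaggtcacccctg
miR408-3p: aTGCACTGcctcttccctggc
miR857: tTTTGTATgttgaaggtgtat

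For each of 9 copper protein genes the exon stretch most complementary to its microRNA was searched. The sites below are shown in the sense of the mRNA, with bases that pair with the microRNA in capitals and mismatches, G-U pairs included, in lower case. The ARPN and LAC2 sites, in the coding sequence, each had 2 such positions. The CSD1 site, outside the coding sequence and across an exon junction, had 4, the CCS site 6 and the CSD2 site 8, both of these in the coding sequence.
CSD1 site for miR398b-3p: aAGGGGTttCCTGAGAtCACA
CSD2 site for miR398b-3p: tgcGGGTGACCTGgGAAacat
CCS site for miR398b-3p: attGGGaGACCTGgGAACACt
ARPN site for miR408-3p: cCaAGGGAAGAGGCAGTGCAT
LAC2 site for miR397a: aATCAAtGCTGCACTCAATGA
LAC17 site for miR397a: aATCAAtGCTGCACTtAATGA
These matches describe letters and not cleavage. LAC17, with a site of 3 such positions, was not lower, at 39.3 FPKM at 7 d against 28.9 FPKM at 4 d in low Mg. LAC4, also with 3, had 22.7 against 49.1 FPKM, and LAC7, with a miR857 site of 2, had 71.1 against 111 FPKM.

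The bases before these precursors are shown because they hold runs of GTAC, the core that SPL7 binds. Of the 7 microRNA loci, 5 had 3 or more copies in the 250 bases before the annotated precursor, whose start is not the start of transcription. Among all 15786 coding genes compared, 39.1% had a GTAC in the window of 250 bases before to 50 after the start, and 1.88% had 3 or more. The shares were 41.2% and 3.63% in the 551 coding genes 2-fold higher, and 40.05% and 1.79% in the 2010 that were 2-fold lower. GTAC is the same on both strands and is in capitals below. It was added to the motifs searched after values had been seen.
MIR398B, chr5:4690772-4691021, plus strand, 250 bases: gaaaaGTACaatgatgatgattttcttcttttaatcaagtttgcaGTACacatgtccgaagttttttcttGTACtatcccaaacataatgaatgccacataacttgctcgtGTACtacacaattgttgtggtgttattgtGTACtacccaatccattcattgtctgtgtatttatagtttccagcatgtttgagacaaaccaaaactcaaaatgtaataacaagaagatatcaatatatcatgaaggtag
MIR398C, chr5:4694444-4694693, plus strand, 250 bases: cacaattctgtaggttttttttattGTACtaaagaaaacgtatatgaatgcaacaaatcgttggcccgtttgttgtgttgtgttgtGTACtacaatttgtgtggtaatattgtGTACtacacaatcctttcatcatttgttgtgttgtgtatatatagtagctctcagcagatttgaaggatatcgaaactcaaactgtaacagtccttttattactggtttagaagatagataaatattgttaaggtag
MIR408, chr2:19319564-19319813, plus strand, 250 bases: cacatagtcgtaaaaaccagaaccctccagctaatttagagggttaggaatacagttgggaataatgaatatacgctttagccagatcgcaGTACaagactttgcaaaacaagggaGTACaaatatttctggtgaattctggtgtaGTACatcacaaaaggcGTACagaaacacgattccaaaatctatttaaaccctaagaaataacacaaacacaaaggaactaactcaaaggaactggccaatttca
MIR397A, chr4:2625700-2625949, plus strand, 250 bases: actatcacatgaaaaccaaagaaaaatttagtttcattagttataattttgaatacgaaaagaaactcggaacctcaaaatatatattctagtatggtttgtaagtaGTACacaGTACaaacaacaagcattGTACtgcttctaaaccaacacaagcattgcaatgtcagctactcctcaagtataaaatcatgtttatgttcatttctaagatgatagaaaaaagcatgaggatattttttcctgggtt
MIR397B, chr4:7878761-7879010, minus strand, 250 bases: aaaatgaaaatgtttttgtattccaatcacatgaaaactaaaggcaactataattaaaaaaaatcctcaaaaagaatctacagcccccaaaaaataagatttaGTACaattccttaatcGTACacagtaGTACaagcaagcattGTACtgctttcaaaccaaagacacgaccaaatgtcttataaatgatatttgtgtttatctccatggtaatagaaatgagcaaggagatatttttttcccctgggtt
Of the copper genes themselves, CCH had 4 copies and YSL2 had 3 in the 300-base window, FSD1 and COPT2 had 1 each, and FRO4 and FRO5 had none there. RAN1, which was within 2-fold, had 3 as well, and CSD1 and ARPN, which were lower, had 2 each.

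Several genes not counted in the lists had the same profile as FRO5 and COPT2, highest in the low Mg library of 7 d. They were picked after their values had been seen. The annotation gives AT1G71200 (chr1:26835200-26837991, minus strand) only as a basic helix-loop-helix protein. It had 53.9 FPKM in low Mg at 7 d, 0.159 FPKM in low Mg at 4 d, 0.459 and 0.171 FPKM in high Mg at 7 d and 4 d and 0.585 FPKM in the control. Of 4 genes of defensin-like peptides, small cysteine-rich secreted proteins, AT5G33355 (chr5:12599250-12599944, plus strand) had 2733 against 46.1 FPKM in low Mg and 14.9 against 75.7 FPKM in high Mg. AT3G59930 had 1208 against 38.2 FPKM in low Mg and 16.2 against 36.8 FPKM in high Mg. AT1G34047 had 131 against 0.463 FPKM in low Mg. AT4G11393 had 238 FPKM in low Mg at 7 d and was at 0 at 4 d in both Mg levels, but it had 41.5 FPKM in the control. The 2-oxoglutarate oxygenase gene AT3G12900 had 31.8 against 2.73 FPKM in low Mg. It was entered in the iron list as S8H, a symbol the annotation does not pair with it. The iron counts below therefore leave it out.

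NRT2.7 (AT5G14570, chr5:4695084-4697078, minus strand), a nitrate transporter best known from seeds, had 44.3 FPKM in low Mg at 7 d and 2.56 FPKM at 4 d, with 2.51 and 2.49 FPKM in high Mg and 2.37 FPKM in the control. It lies on the other strand, 275 bases beyond MIR398C, in 1 of the 4 runs of 3 or more neighbouring loci that were all 2-fold higher. The other members of that run were MIR398B and the 123-nt gene AT5G14560, at 256 FPKM at 7 d and 0 at 4 d in low Mg and at 302 FPKM in high Mg at 4 d. AT5G14560 partly overlaps AT5G14550 on the other strand, and without strand their fragments cannot be told apart there. Whether transcripts of the microRNA loci extend into these neighbours was not tested.

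Zinc and iron genes held members that were higher and members that were lower at 7 d in low Mg. The zinc and copper transporter ZIP2 had 129.97 FPKM at 7 d and 15.3 FPKM at 4 d in low Mg, against 17.1 and 22.6 FPKM in high Mg. The zinc transporter ZIP4 had 25.995 against 5.68 FPKM in low Mg, while ZIP5 was lower at 4.00 against 17.0 FPKM (a ratio of 0.080 on the TPM scale). IRT1 (AT4G19690, chr4:10707344-10709015, plus strand), the iron importer of the epidermis, had 195 FPKM at 7 d against 81.0 FPKM at 4 d in low Mg, a ratio of 1.26. In high Mg it had 60.004 FPKM at 7 d against 185 FPKM at 4 d, a ratio of -1.61. The ferric reductase gene FRO2 was alike, at 84.3 against 22.3 FPKM in low Mg and 25.97 against 58.2 FPKM in high Mg. Of 16 measured genes of a copper and zinc list, 8 were 2-fold higher in low Mg and 4 lower (4.03% and 12.9% of all genes). The list had a median of 0.98 there. In high Mg 3 were higher and 4 lower (4.65% and 11.3% of all genes), with a median of -0.28. That list is no list of transporters alone: it also counts CSD1, CSD2, FSD1, CCH, FRO4, FRO5 and the COPT genes given above. NAS4, a nicotianamine synthase, was higher in low Mg at 7.21 against 0.834 FPKM, and NAS1 was lower at 26.3 against 102 FPKM (a ratio of 0.23 on the TPM scale). The iron regulator gene FRU (FIT) was within 2-fold at 76.5 against 102 FPKM. Of 19 measured iron genes, 5 were 2-fold higher and 1 lower in low Mg (4.03% and 12.9% of all genes; median 0.00), while 1 was higher and 6 were lower in high Mg (4.65% and 11.3% of all genes; median -0.73).

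Morning-phased clock genes were higher at 7 d. Of 12 morning-phased genes, 10 were 2-fold higher at 7 d in low Mg (4.03% of all genes), with a median of 4.60. In high Mg 11 were 2-fold higher (4.65% of all genes), with a median of 4.67. CCA1 (AT2G46830, chr2:19245591-19248915, plus strand), a MYB repressor at the core of the clock, had 228 FPKM in low Mg at 7 d and 0.201 FPKM at 4 d, a ratio of 7.57. In high Mg it had 256 and 0.172 FPKM, and it was at 0 in the control of 4 d. Its partner LHY had 179.7 against 0.0794 FPKM in low Mg and 190.3 against 0.215 FPKM in high Mg. Both libraries of 7 d held these 2 genes above 100 FPKM and all 3 libraries of 4 d below 1 FPKM. The activator genes LNK2, LNK3 and RVE8 had 240.3 against 2.19, 146 against 3.13 and 60.4 against 1.32 FPKM in low Mg, and the repressor gene PRR9 50.2 against 1.303 FPKM. PRR7 and RVE7 were within 2-fold, at 14.8 against 24.4 FPKM and 10.2 against 6.21 FPKM. A set of 7 B-box and other light-phased genes, put together after values had been seen, was 2-fold higher throughout in both Mg levels. Among them RVE2 had 423 against 16.0 FPKM in low Mg, COL2 47.7 against 2.83 FPKM and BBX19 47.2 against 3.93 FPKM.

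Evening-phased genes were lower: 9 of 14 were 2-fold lower in low Mg (12.9% of all genes) and 11 of 14 in high Mg (11.3%). Their medians were -1.96 and -1.76, the first of which turned to 0.12 on the TPM scale. ELF4 (AT2G40080, chr2:16734294-16734953, minus strand), a part of the evening complex, had 8.78 FPKM in low Mg at 7 d and 191 FPKM at 4 d, a ratio of -4.29 (-3.38 centred on length), and 2.77 against 232 FPKM in high Mg. Its partner LUX had 9.67 against 93.5 FPKM in low Mg, while ELF3, the remaining subunit, was within 2-fold at 32.4 against 24.4 FPKM. GI and FKF1, which together time flowering, had 3.55 against 45.6 FPKM and 0.263 against 14.2 FPKM. The repressor genes PRR5, PRR3 and TOC1 had 2.26 against 18.25, 0.861 against 7.48 and 18.21 against 58.8 FPKM. The RNA-binding protein gene CCR2 was the most abundant, at 1148 against 6114 FPKM. For each of these genes other than ELF3, all 3 libraries of 4 d stood above both libraries of 7 d, with TOC1 at 57.7 to 58.8 FPKM in the libraries of 4 d, though its low Mg ratio turned to 0.47 on the TPM scale. The hour of harvest is not in the labels, so a difference in time of day cannot be told apart from days of treatment.

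**Figure D4:**
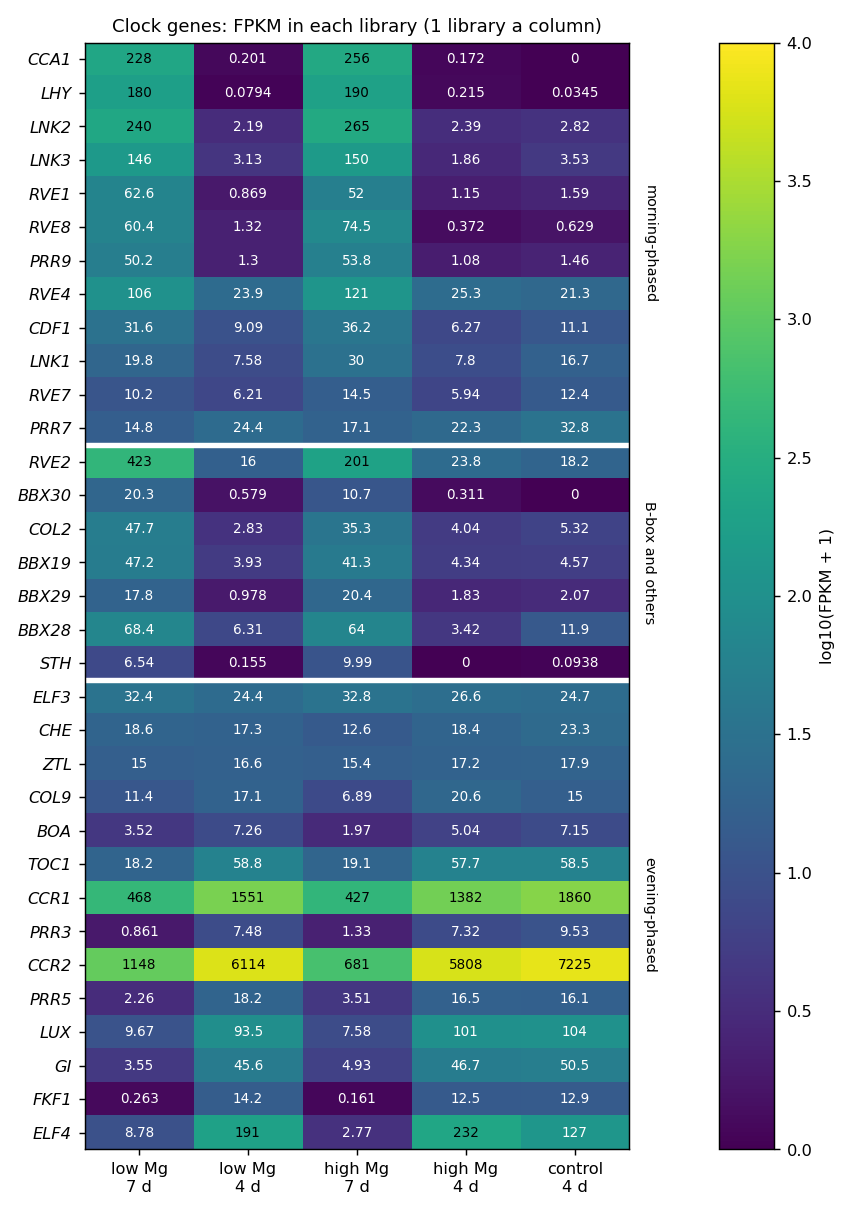
FPKM of 12 morning-phased, 7 B-box and other and 14 evening-phased genes (rows) in the 5 libraries (columns), printed in each cell and coloured by log10(FPKM + 1). The 2 columns of 7 d carry CCA1 at 228 and 256 FPKM and ELF4 at 8.78 and 2.77 FPKM, while the 3 columns of 4 d carry CCA1 below 1 FPKM and ELF4 at 127 to 232 FPKM.

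The evening element, AAATATCT on either strand, was in the 300-base window of 8 of the 14 evening-phased genes, 2 of the 12 morning-phased genes and 5.85% of all coding genes compared. It was in 9.85% of the coding genes 2-fold lower and in 3.99% of those 2-fold higher. Among the 983 coding genes 2-fold lower in both Mg levels the share was 13.6%, against 6.55% of the 947 that were 2-fold lower in low Mg and within 2-fold in high Mg. The G-box, CACGTG, was in 9 of 12 morning-phased genes, 11.8% of the genes 2-fold higher and 8.55% of all. Promoters of 2 evening-phased genes are shown, 250 bases before the annotated start, with each evening element in capitals. CCR2 carries 3 copies there and LUX 2.
CCR2, chr2:9266558-9266807, minus strand: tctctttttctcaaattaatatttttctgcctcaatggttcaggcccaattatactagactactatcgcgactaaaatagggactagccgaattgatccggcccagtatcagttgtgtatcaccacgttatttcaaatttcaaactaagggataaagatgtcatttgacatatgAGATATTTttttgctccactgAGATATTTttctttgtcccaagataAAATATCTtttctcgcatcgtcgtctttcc
LUX, chr3:17182792-17183041, plus strand: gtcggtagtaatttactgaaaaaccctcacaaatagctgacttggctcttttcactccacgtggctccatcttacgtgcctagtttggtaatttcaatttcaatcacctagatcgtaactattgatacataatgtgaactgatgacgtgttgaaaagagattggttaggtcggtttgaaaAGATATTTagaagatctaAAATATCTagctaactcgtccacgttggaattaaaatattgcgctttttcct

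Defence genes were lower at 7 d in low Mg, and the difference from high Mg was not tested. Of 15 measured salicylate and defence genes, 10 were 2-fold lower in low Mg (12.9% of all genes were) and 0 in high Mg (11.3%). The medians were -1.66 in low Mg and 0.42 in high Mg. The low Mg median became 0.50 on the TPM scale, on which the median of all genes was 1.76. WRKY46 (AT2G46400, chr2:19043411-19044955, minus strand), a defence transcription factor, had 6.78 FPKM at 7 d and 40.1 FPKM at 4 d in low Mg, a ratio of -2.40. In high Mg it had 13.9 against 7.35 FPKM and in the control 5.61 FPKM, so the low Mg library of 4 d stood above the other 4. WRKY70 was also highest in low Mg at 4 d, at 7.06 against 37.9 FPKM in low Mg and 11.8 FPKM in the control. FMO1, which makes the immune signal N-hydroxypipecolic acid, had 7.90 against 40.4 FPKM in low Mg, but 57.2 FPKM in the control. ALD1, which acts before it, had 2.92 against 17.61 FPKM, and SID2, the salicylate synthesis enzyme, had 4.34 against 19.8 FPKM. Of 49 measured WRKY genes, 14 were 2-fold lower in low Mg (12.9% of all genes). In high Mg 6 were 2-fold higher (4.65% of all genes). The W-box TTGACC, which WRKY proteins bind, was in 16.5% of the genes 2-fold lower, 11.3% of those 2-fold higher and 14.9% of all.

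Genes of camalexin and indole glucosinolates, tryptophan-derived defence compounds, were lower with them. In low Mg 9 of 15 were 2-fold lower (12.9% of all genes) and in high Mg 1 was (11.3% of all genes). The medians were -1.14 in low Mg (0.93 on the TPM scale) and 0.04 in high Mg. CYP71A12 had 40.3 against 246 FPKM in low Mg and 17.2 against 5.27 FPKM in high Mg, with 167 FPKM in the control. CYP79B2, which opens the pathway, had 44.5 against 191 FPKM in low Mg, and CYP81F2 had 5.62 against 39.8 FPKM. The 4 indole glucosinolate methyltransferase genes IGMT1 to IGMT4 are neighbours on chromosome 1 and formed one of 62 runs of 3 or more adjacent loci that were all 2-fold lower. IGMT2 had 12.8 against 115 FPKM, IGMT3 17.2 against 143 FPKM and IGMT4 9.22 against 103 FPKM in low Mg, and fragments may be shared between such copies. The elicitor peptide precursor genes PROPEP1, PROPEP2 and PROPEP3, whose peptides amplify immune signals, were another run, with PROPEP3 at 16.5 against 171 FPKM. Centred on length the ratios of PROPEP1 and PROPEP2 became -0.53 and -0.49, and PROPEP3 alone of the 3 stayed 2-fold lower.

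Touch and calmodulin-like genes, which respond to calcium, had 8 of 12 members 2-fold lower in low Mg (12.9% of all genes) and 1 in high Mg (11.3% of all), with medians of -1.36 (0.78 on the TPM scale) and 0.09. CML37 (AT5G42380, chr5:16942447-16943820, minus strand), a calmodulin-like protein, had 1.71 FPKM at 7 d and 38.1 FPKM at 4 d in low Mg. The other 3 libraries lay at 4.18, 4.50 and 5.75 FPKM, so the low Mg library of 4 d was the one that stood high. CML38 was alike, at 5.18 against 39.4 FPKM in low Mg and 7.26 to 12.04 FPKM in the other 3. ZAT10, a zinc finger repressor, had 52.2 against 242 FPKM in low Mg. Of 17 ethylene response factor genes found by their description, 13 were 2-fold lower in low Mg (12.9% of all genes). In high Mg 4 were 2-fold lower (11.3% of all genes). The medians were -1.27 in low Mg (0.86 on the TPM scale) and -0.52 in high Mg. Centred on length, 7 of the 17 were 2-fold lower in low Mg, with a median of -0.81. ERF11 had 4.41 against 34.2 FPKM and ERF104 57.6 against 212 FPKM in low Mg. Glutathione transferase genes GSTF6 and GSTF7, which are close paralogs, had 79.0 against 715 FPKM and 114 against 891 FPKM in low Mg. In high Mg GSTF6 had 181 against 74.0 FPKM and GSTF7 had 211 against 142 FPKM. The class III peroxidase gene PRXCB had 13.4 against 118 FPKM in low Mg and 67.1 against 45.3 FPKM in high Mg.

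Jasmonate genes were mostly within 2-fold in low Mg, as were most of all genes compared. The repressor genes JAZ9 and JAZ10 had 14.7 against 1.62 FPKM and 9.58 against 0.9746 FPKM in low Mg. These were the 2 of 12 measured members that were 2-fold higher, with none 2-fold lower (4.03% and 12.9% of all genes). In high Mg 4 of the 12 were higher and 0 lower (4.65% and 11.3% of all genes). HOL2, a methyltransferase gene, was lower in low Mg at 0.845 against 15.0 FPKM and higher in high Mg at 17.5 against 3.36 FPKM. The neighbouring mannose-binding lectin genes AT1G52120 and AT1G52130 did likewise, the second at 1.01 against 9.64 FPKM in low Mg and 20.0 against 0.830 FPKM in high Mg.

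Root hair genes, the subject of the series, were mostly within 2-fold between the days in low Mg, as were most of all genes compared. Of 28 measured genes of root hair walls and tip growth, 5 were 2-fold higher and 1 was 2-fold lower in low Mg. The shares over all genes were 4.03% and 12.9%, and the median of the list was 0.44. In high Mg 0 were higher and 20 lower (4.65% and 11.3% of all genes), with a median of -1.76. Centred on length, 9 were higher and 0 lower in low Mg. The difference between the Mg levels was not tested. RHS15, a glycerol-3-phosphate permease, had 51.9 FPKM at 7 d and 11.03 FPKM at 4 d in low Mg, against 1.78 and 4.61 FPKM in high Mg. The xyloglucan-modifying enzyme XTH26 had 51.2 against 21.4 FPKM in low Mg and 6.36 against 43.8 FPKM in high Mg. XTH12 had 13.0 against 5.71 FPKM in low Mg and 1.43 against 16.7 FPKM in high Mg. The hair expansin gene EXPA7 was within 2-fold in low Mg at 53.0 against 35.9 FPKM, with 19.4 against 70.3 FPKM in high Mg. The extensin gene EXT12 was the member 2-fold lower, at 17.3 against 37.9 FPKM in low Mg (a ratio of 0.98 on the TPM scale) and 6.40 against 195 FPKM in high Mg.

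Of the root hair transcription factors, RHD6 and RSL1, which start a hair, had 9.14 against 7.49 FPKM and 2.27 against 2.67 FPKM in low Mg. RSL2 and RSL4, which drive its growth, had 12.3 against 18.24 FPKM and 3.14 against 2.09 FPKM. RSL1 and RSL4 lay under the 5 FPKM minimum in both low Mg libraries and were not compared. LRL1 had 64.9 against 78.4 FPKM and LRL3 26.8 against 29.9 FPKM. LRL2 alone of the 5 measured factors was 2-fold apart in low Mg, lower at 13.5 against 36.0 FPKM (a ratio of 0.70 on the TPM scale). LRL2 was 2-fold lower in high Mg too, at 13.2 against 32.8 FPKM. RSL4 in high Mg had 2.66 FPKM at 7 d and 10.0 FPKM at 4 d. Of 8 measured regulators of epidermal cell fate, ETC1 was 2-fold higher at 7.24 against 2.92 FPKM in low Mg and none was 2-fold lower. Of all genes, 4.03% were 2-fold higher and 12.9% lower.

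Measured genes of Mg2+ transport were within 2-fold between the days at low Mg, but for 1, and most of all genes compared were so too. Of 16 measured members, 1 was 2-fold higher and 0 were lower (4.03% and 12.9% of all genes), with a median of 0.13. The exception was CIPK3 (AT2G26980, chr2:11514600-11518734, minus strand), a kinase of the vacuolar Mg2+ pathway, at 85.8 FPKM at 7 d and 39.7 FPKM at 4 d, with 71.5 and 38.5 FPKM in high Mg. Its relatives CIPK23 and CIPK26 had 212 against 116 FPKM and 22.02 against 17.39 FPKM, and the calcium sensors CBL2 and CBL3 18.4 against 15.8 and 73.7 against 63.5 FPKM. Of the transporters, MGT6, the root importer used at low Mg, had 16.3 against 19.1 FPKM and MGT7 12.7 against 11.4 FPKM. MRS2-1, MRS2-3, MRS2-5 and MRS2-10 had 24.6 against 26.9, 39.6 against 41.2, 14.3 against 8.37 and 4.90 against 5.63 FPKM. MGT9 had 8.94 against 8.25 FPKM and the plastid protein MGT10 6.48 against 5.86 FPKM. The vacuolar exchangers CAX1, CAX3 and MHX had 24.1 against 14.6, 7.14 against 7.41 and 8.40 against 11.2 FPKM. MGT5 was at 0 in both, and CIPK9, at 2.71 against 0.780 FPKM, lay under the 5 FPKM minimum.

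Among other nutrients, NRT2.1 (AT1G08090, chr1:2524023-2526322, plus strand), the main high-affinity nitrate importer, was lower at 8.37 FPKM at 7 d against 135 FPKM at 4 d in low Mg, a ratio of -3.86. In high Mg it had 17.36 against 44.6 FPKM, and in the control 1341 FPKM, so that all 4 treated libraries lay far under the control. Its partner NRT3.1 had 203 against 619 FPKM in low Mg. Of 21 measured nitrogen genes, 4 were 2-fold lower and 0 higher in low Mg, where 12.9% of all genes were lower, and 8 were lower in high Mg, where 11.3% were. The phosphate regulator WRKY75 had 6.13 against 28.1 FPKM, and the phosphate importer PHT1;1 184 against 382 FPKM. The sulfur-starvation gene LSU2 was lower at 1.07 against 9.43 FPKM, while the sulfate importer gene SULTR1;1 was higher at 65.0 against 25.4 FPKM. SKOR, the channel that loads potassium into the xylem, was higher in both Mg levels, at 153 against 41.2 FPKM in low Mg and 107 against 25.9 FPKM in high Mg. The potassium importer HAK5 was lower in low Mg at 9.76 against 23.9 FPKM, but its ratio turned to 0.79 on the TPM scale. NIP5;1, the boric acid channel of the root surface, had 549 against 127 FPKM in low Mg and 130.03 against 118 FPKM in high Mg. It was 1 of 5 listed aquaporin genes 2-fold higher out of 19 measured, with none 2-fold lower (4.03% and 12.9% of all genes). Of 24 measured aquaporin genes found by their descriptions instead, 4 were 2-fold higher and 1 was 2-fold lower in low Mg. The water channel gene PIP1;2 had 3051 against 968 FPKM in low Mg.

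**Figure D5:**
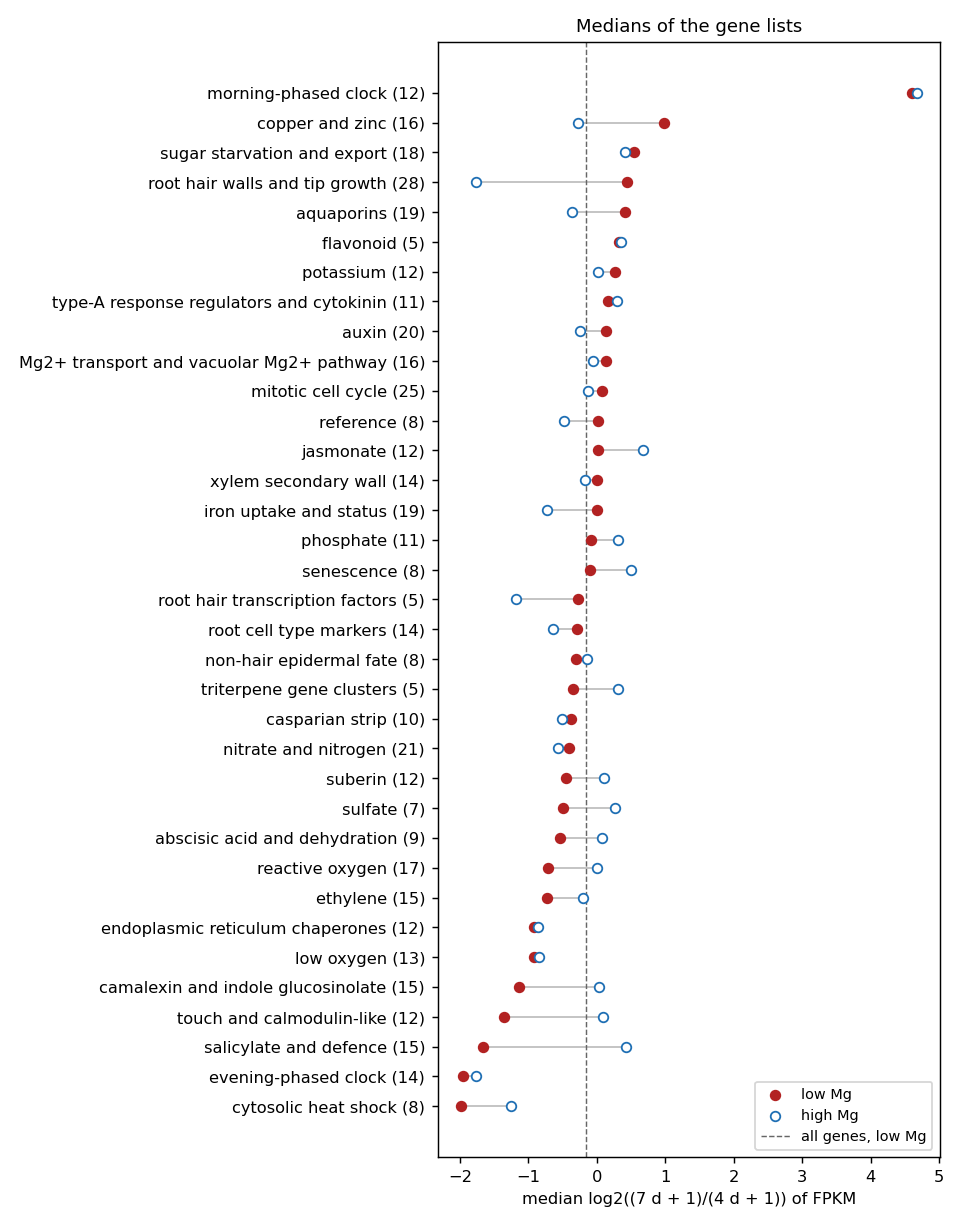
Median log2 ratio of 7 d over 4 d for each gene list with 5 or more measured members (number in brackets), in low Mg (filled) and high Mg (open), with the median of all genes in low Mg as a dashed line. The lists whose medians lie furthest apart are salicylate and defence, at -1.66 and 0.42, and root hair walls, at 0.44 and -1.76.

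Of 18 measured genes of sugar starvation and export, 5 were 2-fold higher and 2 lower in low Mg, and 3 and 1 in high Mg. Over all genes, the shares for this and the counts that follow were 4.03% higher and 12.9% lower in low Mg. In high Mg the shares were 4.65% and 11.3%. SWEET2, a vacuolar sugar transporter, had 24.7 against 4.11 FPKM in low Mg and 25.8 against 4.59 FPKM in high Mg. DRM2, a dormancy-associated gene, had 454 against 3159 FPKM in low Mg. IPT5, a cytokinin synthesis enzyme, was higher at 121 against 34.0 FPKM. Of 8 measured cytosolic heat shock genes, 6 were 2-fold lower in each Mg level, with medians of -1.99 and -1.25. HSP90.1 had 0.719 FPKM at 7 d and 26.04 FPKM at 4 d in low Mg, and 209 FPKM in the control, and HSP70 had 1.63 against 34.0 FPKM. Of 13 low oxygen genes, 6 were 2-fold lower and 1 was higher in each. PDC2 and ADH1, enzymes of ethanol fermentation, had 4.16 against 62.2 FPKM and 37.7 against 149 FPKM in low Mg. CBF3, a cold and dehydration factor, was higher at 10.9 against 0.317 FPKM, and DREB2A was lower at 3.03 against 20.4 FPKM. BIP3, an endoplasmic reticulum chaperone, was lower at 0.467 against 8.77 FPKM, one of 3 such genes of 12.

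Some protein families, found by their descriptions, had medians under that of all genes. The median was -0.62 for 229 ribosomal protein genes, some of them of plastids or mitochondria, -0.90 for 51 lipid transfer protein genes, -0.94 for 39 arabinogalactan protein genes and -1.02 for 35 extensin and proline-rich wall genes. Centred on length these became -0.16, -0.23, -0.60 and -0.56, and on the TPM scale all 4 turned positive. Of the 35 extensin and proline-rich wall genes, 18 were 2-fold lower in low Mg (12.9% of all genes). EXT3, the most abundant named one, had 1311 against 7765 FPKM in low Mg. EXT4 had 214 against 1086 FPKM in low Mg, but 769.7 against 448 FPKM in high Mg. Among the 12 lowest ratios of named coding genes with 500 nt or more were those of RTFL7, a small growth-regulating peptide, at 2.43 against 113 FPKM, and of CLE20, a signal peptide, at 2.08 against 56.6 FPKM. With them were the defensin gene PDF2.5, at 226 against 4135 FPKM, the abscisic acid factor ABF1, at 1.45 against 43.3 FPKM, and the RNA polymerase subunit gene NRPB12, at 176 against 2763 FPKM. JMJD5, a jumonji-domain gene tied to the clock, had 1.22 against 30.4 FPKM in low Mg and 1.92 against 34.6 FPKM in high Mg. RTFL18 had 74.6 FPKM in low Mg at 4 d and was at 0 in each of the other 4 libraries.

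Root and shoot markers were read to check the tissue label. Of 15 markers of root cell types, 14 were measured and 0 were 2-fold apart, among them the endodermis gene CASP1 at 226 against 370.2 FPKM and the phloem gene SUC2 at 25.9 against 29.1 FPKM. Of 20 genes of shoot photosynthesis, 3 reached 5 FPKM in either library, and all 20 summed to 52.5 FPKM at 7 d and 32.9 FPKM at 4 d, most of it PSBR at 44.5 and 17.7 FPKM, with RBCS1B and LHCB2.1 at 0 in both. All 8 measured genes used as steady references were within 2-fold in low Mg, with a median of 0.02. Most of all genes compared were within 2-fold too, with 4.03% 2-fold higher and 12.9% 2-fold lower. Of 25 measured mitotic genes, 1 was 2-fold lower, the cyclin gene CYCD3;1 at 9.58 against 20.8 FPKM (a ratio of 0.92 on the TPM scale).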

How the data were processed

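RNA-seq of 5 root libraries was analysed, 1 a group, from the deposited matrix of FPKM per locus. The authors' FPKM values were made with TopHat2 2.0.8 and Cufflinks 2.1.1 on TAIR10 for the samples of 4 d, per the submitters' processing notes. For the samples of 7 d these name TAIR10 alone, with aligner and counter not given in the sources used here. That the unit is FPKM was read from that list of tools and from the spacing of low values, which also gave the estimated fragments per library. Exact Poisson intervals from them (95%) cover counting error only.

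Ratios were log2((7 d + 1)/(4 d + 1)) of FPKM for loci with 5 FPKM or more in either library, computed with Python 3.11.15, pandas 2.3.3, numpy 2.4.6 and scipy 1.17.1 and drawn with matplotlib 3.10.9. Only the log2 ratio was tested on simulated data, with genes changed by known folds. The estimate of fragments per library, the centring on length and the sequence searches were not. No test was run, as there are no replicates. Of the nuclear loci, 98.6% were found by locus tag in RefSeq's annotation of TAIR10.1, from which names, positions, exon lengths and sequences were taken. A list entry was left out where that annotation does not pair the symbol with the locus (15 entries) or where it was not in the tables used (1 entry).

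The comparison, its members and the gene lists were chosen with earlier results of these data known. Among coding genes with a symbol and 500 nt or more of exon, the genes named are the 12 highest and 12 lowest ratios. With them are up to 6 listed at 0 in one library. Also named are the 8 highest and 8 lowest differences between the low and high Mg ratios. From the lists come up to 3 highest and 3 lowest 2-fold members, and all members of the Mg2+ transport, root hair factor and clock lists. The 3 highest and 3 lowest of a family complete the set. This rule gave more genes than are printed, and other genes were named after their values had been seen. Alternatives were other pseudocounts and filters, the same sum over nuclear loci (TPM), with and without the highest locus, centring on the median or on genes of like length, and coding genes alone.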

Additional observations from a re-analysis of the deposited data

Results flagged for a closer look

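For several results the low Mg ratio of 7 d over 4 d and the high Mg ratio of the same days had opposite signs. With 1 library a group these differences were not tested. The low Mg value comes first in each pair below.

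Among genes of iron uptake, FRO2 had a ratio of 1.87 in low Mg and -1.13 in high Mg, and IRT1 had 1.26 and -1.61. Among root hair genes, RHS15 had 2.14 in low Mg and -1.01 in high Mg, XTH26 1.22 and -2.61, and XTH12 1.06 and -2.87. The median of the list of root hair walls and tip growth was 0.44 in low Mg and -1.76 in high Mg. The defensin-like gene AT5G33355 had 5.86 in low Mg and -2.27 in high Mg, and AT3G59930 had 4.94 and -1.13. The median of the copper and zinc list was 0.98 in low Mg and -0.28 in high Mg.

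The reverse signs held for genes of several roles, defence among them. GSTF6 had a ratio of -3.16 in low Mg and 1.28 in high Mg, CYP71A12 -2.58 and 1.54, HOL2 -3.11 and 2.08, and the lectin gene AT1G52130 -2.41 and 3.52. The elicitor peptide gene PROPEP2 had -1.34 in low Mg and 1.14 in high Mg. GSTU12 had -2.96 and 1.29, ARD3 -2.13 and 2.11, MYB15 -2.23 and 1.08, and DIR5 -1.02 and 2.703. The list medians were -1.66 in low Mg and 0.42 in high Mg for salicylate and defence, -1.14 and 0.04 for camalexin and indole glucosinolates, and -1.36 and 0.09 for touch and calmodulin-like genes.

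Loci of the plastid genome, which the ratios leave out, summed to 297 FPKM in low Mg at 7 d and 6749 FPKM in low Mg at 4 d, against 389 and 8207 FPKM in high Mg and 4388 FPKM in the control of 4 d.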

How the results depend on the processing

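No paired analysis was possible because each group held 1 library. Of the 231 results recomputed, the reversed ones all came from setting nuclear loci to the same sum (TPM), a scale on which the median of all genes was 1.76. There the list medians became 0.50 for salicylate, 0.93 for camalexin, 0.78 for touch, 0.12 for evening-phased clock, 0.98 for extensins and 0.86 for ethylene response factors. Gene ratios that turned positive there were 0.080 for ZIP5, 0.43 for CCS, 0.0046 for SID2, 0.21 for ADH1, 1.01 for LAC4, 0.98 for EXT12, 0.79 for HAK5, 0.70 for LRL2, 0.92 for CYCD3;1, 0.092 for CYP79B2, 0.23 for NAS1, 1.13 for PHT1;1, 0.58 for NRT3.1, 0.47 for TOC1, 0.31 for ERF104, 0.75 for PROPEP1, 0.73 for PROPEP2, 0.99 for COR47, 1.05 for DIR5 and 1.13 for CASP4.

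The 652 genes 2-fold higher became 381 with a pseudocount of 5, 356 with a filter of 20 FPKM, 13966 on the TPM scale and 1617 on that scale without the highest locus. The 2085 genes 2-fold lower became 216 and 1157 on those 2 scales and 1092 when centred on length, an alternative chosen after seeing the data. The 315 genes higher in both Mg levels became 200 with a pseudocount of 5, 186 with a filter of 20 FPKM, and 9342 and 851 on the 2 scales. The 1004 lower in both became 80 and 444 on those scales and 411 when centred on length. The median of morning-phased clock genes was 3.25 with a pseudocount of 5. That of copper and zinc was 2.96 with a filter of 20 FPKM and 2.85 on the TPM scale, where that of root hair walls was 2.34. These shifts follow from the scale or from the members the filter leaves. No other setting reversed a result. The shallow low Mg library of 7 d limits genes under 5 FPKM.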

Other observations

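Single genes of other roles are given here by their values. The senescence list as a whole had 1 of 8 measured members 2-fold higher and 0 lower in low Mg (4.03% and 12.9% of all genes). The senescence factor gene NAP had 48.9 FPKM at 7 d and 22.2 FPKM at 4 d in low Mg, and 61.4 against 7.88 FPKM in high Mg. RD26, a dehydration factor of the same NAC family, had 19.1 against 6.62 FPKM in low Mg and 29.6 against 9.05 FPKM in high Mg. MYB59 and MYB49 were higher at 7 d, at 360.2 against 143 FPKM and 40.9 against 12.7 FPKM in low Mg. The dehydrin gene COR47 had 272 against 622 FPKM in low Mg (a ratio of 0.99 on the TPM scale) and 219 against 925 FPKM in high Mg. COR27, a cold and clock gene, was at 0 in low Mg at 7 d and had 8.28 FPKM in low Mg at 4 d, with 0.631 against 9.04 FPKM in high Mg.

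Some genes of the epidermis and wall had a ratio further from 0 in high Mg than in low Mg, a difference that was not tested. FLA6, a fasciclin-like wall protein, had 15.2 against 10.8 FPKM in low Mg and 0.773 against 17.7 FPKM in high Mg. The root hair wall gene PRP1 had 2.502 against 1.07 FPKM in low Mg and 3.49 against 41.6 FPKM in high Mg. AIR1, an auxin-induced wall protein, had 381 against 611 FPKM in low Mg and 1392 against 4037 FPKM in high Mg. CASP2 and CASP4, wall genes of the endodermis, had 83.2 against 150.04 FPKM and 38.8 against 78.6 FPKM in low Mg.

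The metallothionein gene MT1A, 138 nt long and a binder of copper, had 24378 FPKM at 7 d and 3844 FPKM at 4 d in low Mg, with 33777 against 13394 FPKM in high Mg and 12380.4 FPKM in the control. The longest run of neighbours that were all 2-fold lower in low Mg held 10 loci on chromosome 2, from 3251566 to 3502294, with a median ratio of -2.69. Loci of the mitochondrial genome summed to 1284 FPKM in low Mg at 7 d and 6345 FPKM at 4 d, against 1233.9 and 5430 FPKM in high Mg and 8607 FPKM in the control. Whether fragments of nuclear copies of that genome were counted at its loci was not tested. Nor was it tested whether its own fragments were counted at nuclear loci, those of the chromosome 2 run included.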
